A study of Mus musculus with 6 samples.

Results

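Transcripts of 10 genes of the retinal pigment epithelium and the visual cycle were followed in mouse retinas with oxygen-induced retinopathy. The genes, Rpe65, Lrat, Rdh5, Rgr, Ttr, Best1, Mitf, Tyr, Pmel and Krt18, were taken by name from a table of 54532 genes, and all 10 were found. Pups breathed 75% ± 2% oxygen from postnatal day 7, which in this model halts the growth of retinal vessels and is followed by abnormal regrowth in room air. On day 12 the vitreous received 1 nmol of either a miR-381-3p antagomir or a negative control antagomir, and retinas were taken on day 17. An antagomir is a modified antisense oligonucleotide that blocks a microRNA. Each group held 3 libraries, and both groups had been through the oxygen treatment and an injection. No strain is given in the labels, nor whether a library is 1 animal or a pool, so each p-value reflects only how far these particular samples spread, which may be technical. Directions rest on reading the 3 columns of the table that are not marked as negative control as the antagomir libraries.

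The pigment epithelium is a single layer of pigmented cells that lies against the photoreceptors and is easily split from the neural retina. It carries out the part of the visual cycle in which all-trans-retinol from bleached photoreceptors is esterified by LRAT, isomerized by RPE65 and oxidized to 11-cis-retinal by RDH5. RGR is an opsin of the pigment epithelium and of Müller glia that takes part in the light-driven supply of 11-cis-retinal. TTR carries thyroid hormone and the retinol-binding protein, BEST1 is a chloride channel of the basolateral membrane, and MITF is the transcription factor of pigment cell identity. TYR starts melanin synthesis, PMEL forms the fibrils on which melanin is laid down, and KRT18 is a keratin of simple epithelia. In bulk RNA, fewer cells of a type and less RNA per cell cannot be told apart.

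The antagomir was directed against miR-381-3p, and its sequence and matching sites are shown because Mitf and Tyr were the members whose 3′ untranslated regions held a full seed match. Capitals mark the seed (bases 2 to 8) in the microRNA and its match, with the A that follows, in the transcripts. The microRNA is from RefSeq (GRCm38.p6) and the sites are from GENCODE M21 (GRCm38), both written 5′ to 3′.
miR-381-3p, chr12:109726870-109726891, plus strand: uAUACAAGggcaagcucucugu
Mitf site, chr6:98018330-98018357, plus strand: tgtgagccagaCTTGTATAttctatttt
Tyr site, chr7:87427827-87427854, minus strand: caacccagtgcCTTGTATAtgcaatgca
In the longest annotated 3′ untranslated region of each member, Mitf (3174 bases) and Tyr (4278 bases) each held 1 match to bases 2 to 8, in both followed by A. Mitf held 5 matches to bases 2 to 7 and Tyr held 4, while Rgr held 2 and Lrat 1. The regions of Rpe65, Rdh5, Ttr, Best1, Pmel and Krt18, between 66 and 583 bases long, held none. Among 13178 tested genes with such a region, 3.66% held the 8-base match, and among those with a region of a length like that of Mitf or of Tyr the share was 6.96% or 8.29%. A match of letters is a description and does not show that the microRNA acts there.

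Between 13727596 and 16502352 reads per library were rebuilt from the table. The libraries held the transcripts of neural retina, with the summed FPKM (fragments scaled by gene length and library size) of 10 rod genes between 10939 and 12787. Lens transcripts stood apart. The summed level of 22 lens genes was 956 FPKM in antagomir replicate 1, 1673 in control replicate 2 and 814 in control replicate 3, against 26.0 to 47.4 in the other 3 libraries. Cryaa, the lens alpha-crystallin, was at 99.0, 244 and 82.9 FPKM in those 3 libraries and between 0.0474 and 1.37 in the others. The summed level of 8 genes of reactive glia and acute phase was 340 FPKM in antagomir replicate 2 and between 46.4 and 118 elsewhere. The summed level of 8 genes of surface epithelium was 0.743 to 2.13 FPKM in antagomir and 0.818 to 2.64 in control libraries. That of 7 genes of scleral and choroidal stroma was 8.39 FPKM in control replicate 2 and between 2.64 and 4.21 in the other 5 libraries.

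No member passed the test between antagomir and control retinas. Of the 10 members, 8 had a mean of at least 0.5 FPKM and entered the limma fit of 17453 genes on log2(FPKM + 1), while Tyr (mean 0.462) and Best1 (mean 0.271) stayed below it. At an adjusted p of 0.05, 0 of the 8 were called, where 0% of all tested genes were. At an unadjusted p of 0.05 it was also 0 of 8, where 6.2% of all tested genes were called, 3.22% higher and 2.98% lower. Under the alternatives with at least 2 libraries per group, that level was passed by Krt18 without antagomir replicate 3 and by Rpe65 without control replicate 3. Ttr and Rdh5 passed it with a term for lens transcripts. In these fits, in that order, 1183, 752 and 848 of the 17453 tested genes passed it. Voom on the rebuilt reads called 0 members too. The groups overlapped for all 10 members, where 12% of tested genes had groups that did not overlap, 6.16% higher and 5.87% lower. Of the 8, 6 had a log2 fold change above 0 and 2 below 0, with a median of 0.07 beside 0.0013 over all tested genes. The smallest adjusted p of a member was 0.815 by limma (Krt18).

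**Figure D1:**
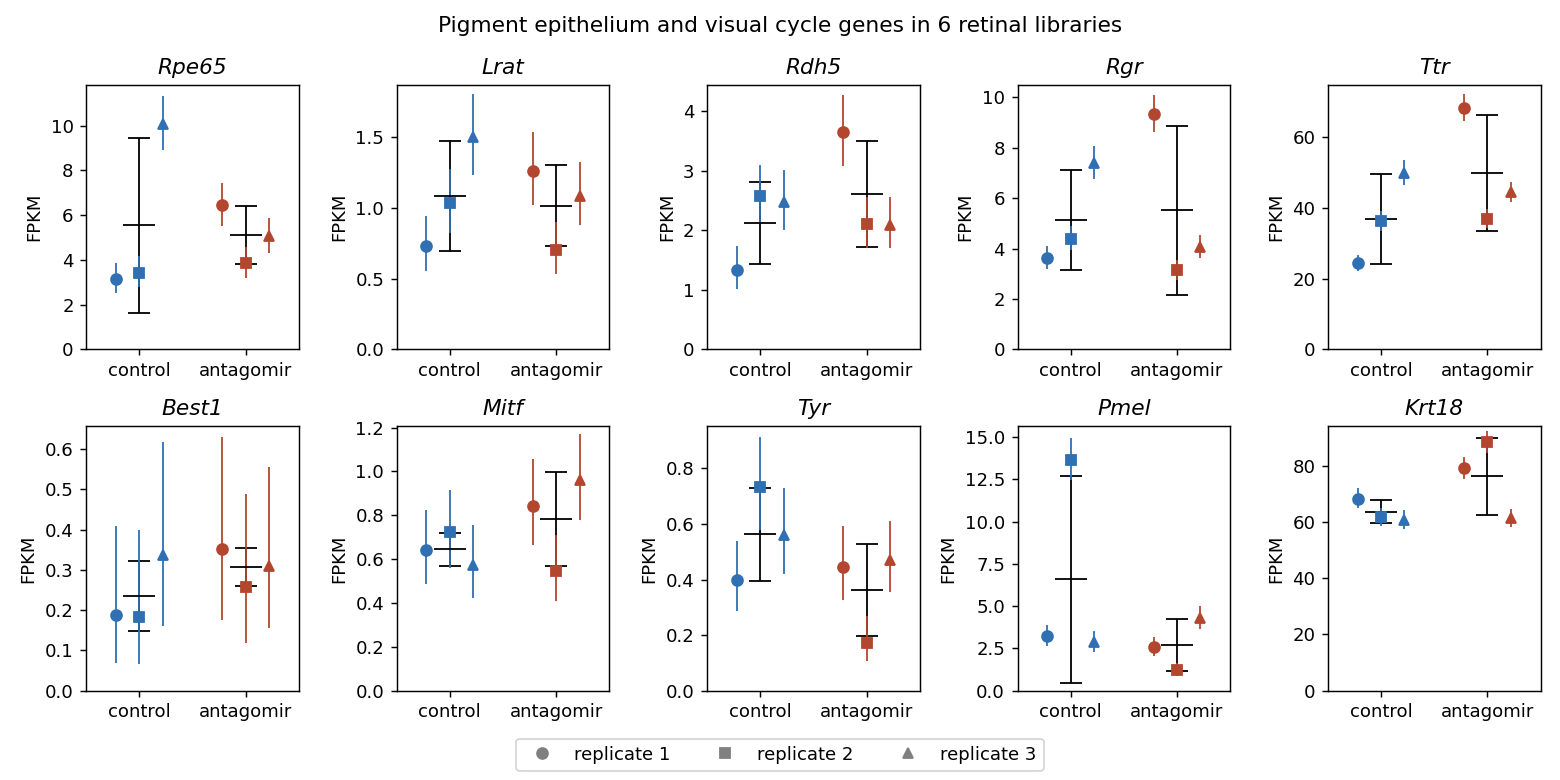
Level of each member in FPKM (vertical axes from 0) in control and antagomir libraries, with the replicate number as marker shape. Vertical bars on the points are exact Poisson 95% intervals of the reads, black bars are the group mean ± SD (n = 3); the groups overlap for every one of the 10 genes.

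**Figure D2:**
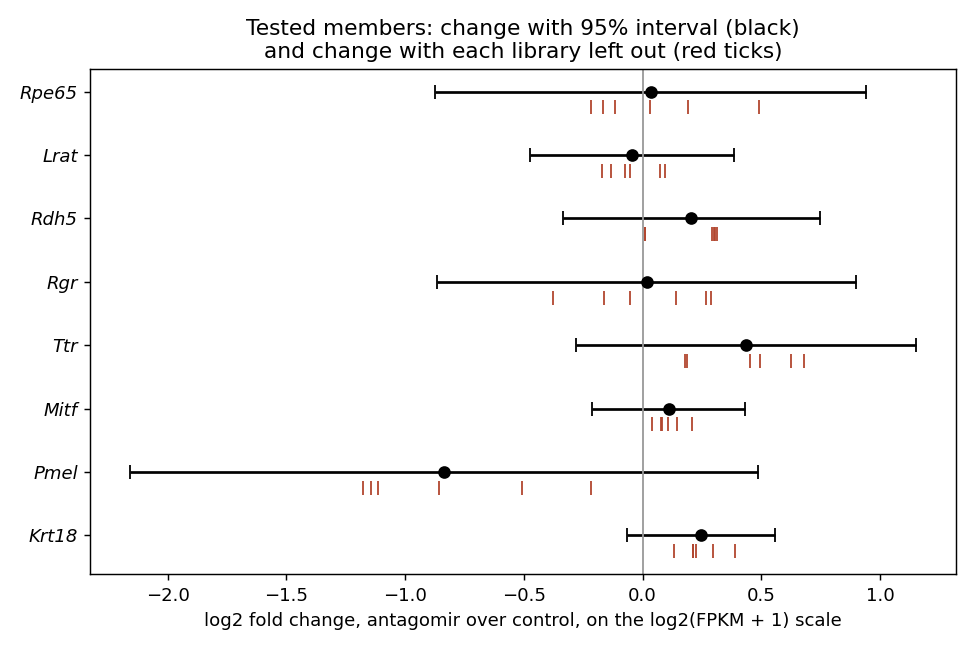
Log2 fold change of the 8 tested members, antagomir over control, on the log2(FPKM + 1) scale, with its 95% interval from limma in black and the values with each library left out as red ticks. Every black interval includes 0, and the ticks of Rpe65, Lrat and Rgr lie on either side of it.

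The genes of the retinoid isomerization steps were detected in all libraries and differed more between libraries than between groups. Rpe65 (ENSMUSG00000028174, chromosome 3, 159599175 to 159625321 in GRCm38, plus strand), the isomerase, was at 6.44, 3.84 and 5.05 FPKM in antagomir replicates 1, 2 and 3 and at 3.13, 3.44 and 10.1 in control replicates 1, 2 and 3. Control replicate 3 was the highest, with 269 reads against 90 to 181 in the other libraries, and control replicates 1 and 2 were the lowest. The group levels were 5.11 ± 1.30 against 5.54 ± 3.91 FPKM (SD, n = 3 each), with a log2 fold change of 0.04 (SE 0.38, 95% interval -0.87 to 0.94, adjusted p = 0.991 by limma). The mean FPKM was lower in the antagomir group while the mean of the logs was higher. Without control replicate 3 the log2 fold change was 0.49, and without control replicate 1 it was -0.22.

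Lrat (ENSMUSG00000028003, chromosome 3, 82892579 to 82903973, minus strand) makes the retinyl esters that RPE65 uses. It was at 1.26, 0.701 and 1.09 FPKM in the antagomir libraries and at 0.728, 1.03 and 1.5 in the controls, from 58 to 111 reads. As with Rpe65, the highest libraries were control replicate 3 and antagomir replicate 1. The log2 fold change was -0.04 (SE 0.18, 95% interval -0.47 to 0.38, adjusted p = 0.975 by limma), and it was 0.09 without control replicate 3.

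Rdh5 (ENSMUSG00000025350, chromosome 10, 128913593 to 128922888, minus strand) encodes the 11-cis-retinol dehydrogenase. It was at 3.65, 2.10 and 2.09 FPKM in the antagomir libraries and at 1.34, 2.58 and 2.47 in the controls. Antagomir replicate 1 was the highest and control replicate 1 the lowest, and the remaining 4 libraries lay between 2.09 and 2.58. The log2 fold change was 0.21 (SE 0.23, 95% interval -0.33 to 0.75, adjusted p = 0.906 by limma). Leaving out antagomir replicate 1 gave 0.0107, and leaving out control replicate 1 gave 0.009. Rdh5 overlaps Bloc1s1 (mean 0.728 FPKM) on the same strand, and how reads in shared sequence were assigned is not given in the sources used here.

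Rgr (ENSMUSG00000021804, chromosome 14, 37034909 to 37048964, minus strand) was at 9.35, 3.13 and 4.07 FPKM in the antagomir libraries and at 3.62, 4.40 and 7.39 in the controls. With 651 reads, antagomir replicate 1 was 2.99 times as high as antagomir replicate 2 with 244, so the highest and the lowest of the 6 libraries belonged to the same group. The log2 fold change was 0.02 (SE 0.37, 95% interval -0.87 to 0.90, adjusted p = 0.995 by limma), and it was -0.38 without antagomir replicate 1.

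Ttr had the second highest mean level of the 10 members, after Krt18. It lies on chromosome 18 (ENSMUSG00000061808, 20665250 to 20674324, plus strand) and was at 68.3, 36.8 and 44.4 FPKM in the antagomir libraries and at 24.4, 36.2 and 49.9 in the controls. Antagomir replicate 1 was the highest and control replicate 1 the lowest, a 2.80-fold range on 442 to 1210 reads. The group levels were 49.8 ± 16.4 against 36.8 ± 12.8 FPKM, with a log2 fold change of 0.44 (SE 0.30, 95% interval -0.28 to 1.15, adjusted p = 0.855 by limma). It was 0.18 without control replicate 1 and 0.68 without control replicate 3. With the mean level of the lens genes as a term in the fit it was 0.68 (adjusted p = 0.979 by limma), and without the 3 libraries with lens transcripts, 2 libraries against 1, it was 0.71 (adjusted p = 0.977).

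Best1 (ENSMUSG00000037418, chromosome 19, 9985174 to 10001633, minus strand) rested on 6 to 11 reads a library. It was at 0.351, 0.257 and 0.310 FPKM in the antagomir libraries and at 0.187, 0.183 and 0.336 in the controls. The exact Poisson 95% interval of the highest library, 0.175 to 0.629, holds the level of every other library. Such an interval covers counting error only and does not compare the groups. In the fit without a filter on low values the log2 fold change was 0.08 (SE 0.075, 95% interval -0.10 to 0.26, adjusted p = 0.874 by limma).

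Most of these genes shared their 2 highest libraries, though not their full order. For 5 members, Rpe65, Lrat, Rgr, Ttr and Best1, the 2 highest of the 6 libraries were antagomir replicate 1 and control replicate 3, which was so for 6.32% of all tested genes. Rpe65 and Lrat were highest in control replicate 3, and Rgr, Ttr and Best1 in antagomir replicate 1. Best1 held only 6 to 11 reads a library. This shared pair was noticed in these data and is a description. Some pigment epithelial genes outside the members had this pair as their highest libraries and most did not. It was found in 2 of 11 other tested genes on the pigment epithelium and Müller glia side of the visual cycle. It was also found in 3 of 20 other pigment epithelium genes. Of these 20, 8 were highest in control replicate 2, where 17.9% of all tested genes were. Stra6, the receptor for retinol-binding protein, was at 2.35, 1.22 and 1.52 FPKM in the antagomir libraries and at 1.01, 1.22 and 1.97 in the controls. Slc16a8, a lactate transporter of the pigment epithelium, was at 6.98, 2.27 and 3.92 against 3.43, 2.80 and 4.38 FPKM. Rrh, which encodes the opsin peropsin, was at 5.64, 4.04 and 4.35 against 3.72, 5.09 and 5.22. For each of these 3 genes antagomir replicate 1 was the highest library and control replicate 3 the second. They were named after their values were seen. Antagomir replicate 1 and control replicate 3 are 2 of the 3 libraries with lens transcripts. Control replicate 2, which had the highest lens level, was at 3.44 FPKM in Rpe65 and 4.40 FPKM in Rgr. For Rdh5 it was the second highest library, at 2.58 FPKM. The part of tissue carried over at dissection in these levels was not tested.

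**Figure D3:**
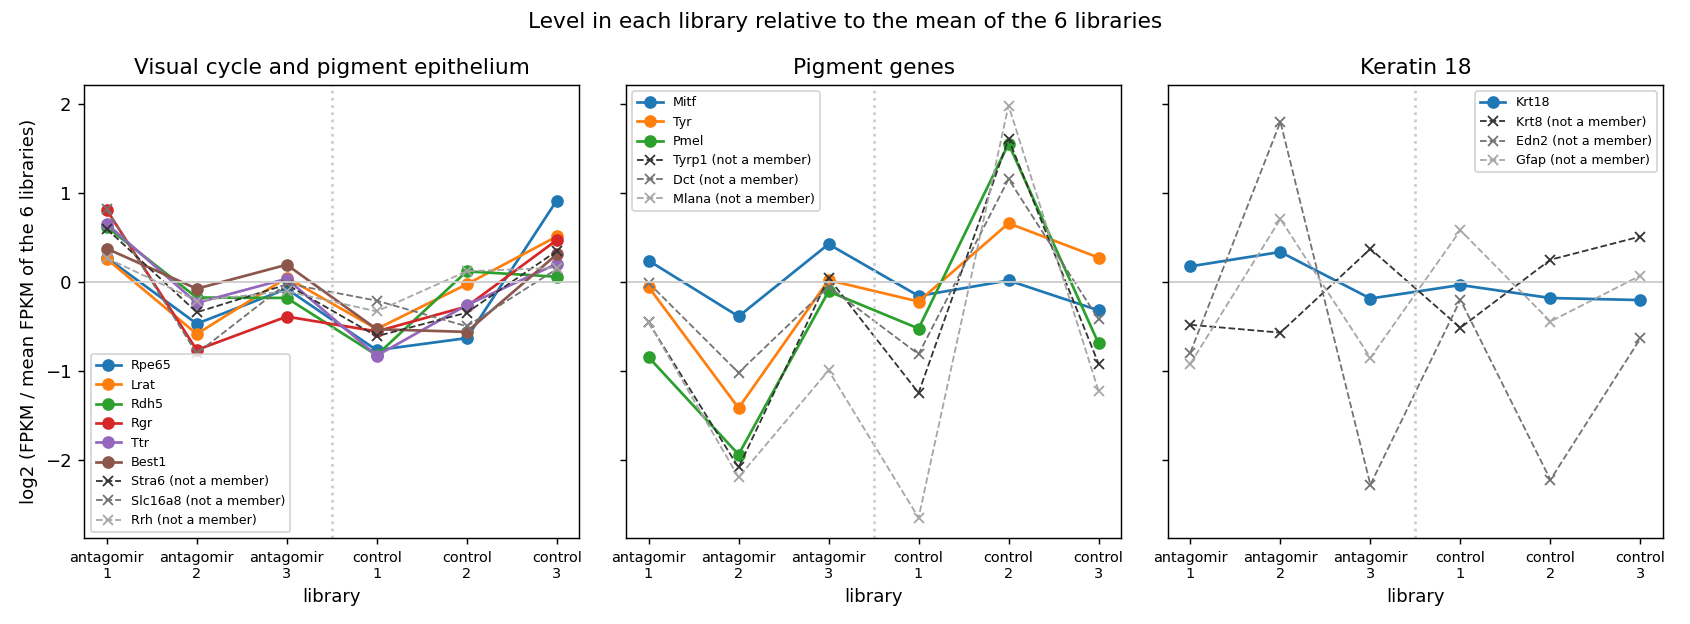
Log2 of each gene's FPKM over its mean in the 6 libraries, for visual cycle and pigment epithelial members (left), pigment genes (middle) and Krt18 (right), with 3 other genes in each panel as dashed lines. The 3 dashed genes on the left were picked after their values were seen. Their 2 highest libraries were shared by only 2 of 11 and 3 of 20 tested genes of the lists they come from. In the left panel every member other than Rdh5 has antagomir replicate 1 and control replicate 3 as its highest libraries, the middle panel peaks at control replicate 2 for Pmel and Tyr, and Krt18 is highest in antagomir replicate 2.

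Proportions were computed for some pairs of Rpe65, Lrat, Rdh5, Rgr and Ttr, not for all. Those computed varied over the libraries by 1.75-fold (Ttr to Rgr) to 3.05-fold (Rpe65 to Rdh5). The levels themselves varied by 2.14-fold for Lrat, 2.72-fold for Rdh5, 2.80-fold for Ttr, 2.99-fold for Rgr and 3.22-fold for Rpe65. The proportions were thus not all steadier than the levels. The ratio of Ttr to Rgr FPKM ran from 6.73 to 11.7 over the 6 libraries. That of Rpe65 to Lrat ran from 3.33 in control replicate 2 (95% counting interval 2.49 to 4.44) to 6.71 in control replicate 3 (5.38 to 8.36), and these intervals, for the lowest and the highest of 6 libraries, cover counting error only. The ratio of Rpe65 to Ttr was between 0.0943 and 0.128 in 5 libraries and 0.202 in control replicate 3.

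**Figure D4:**
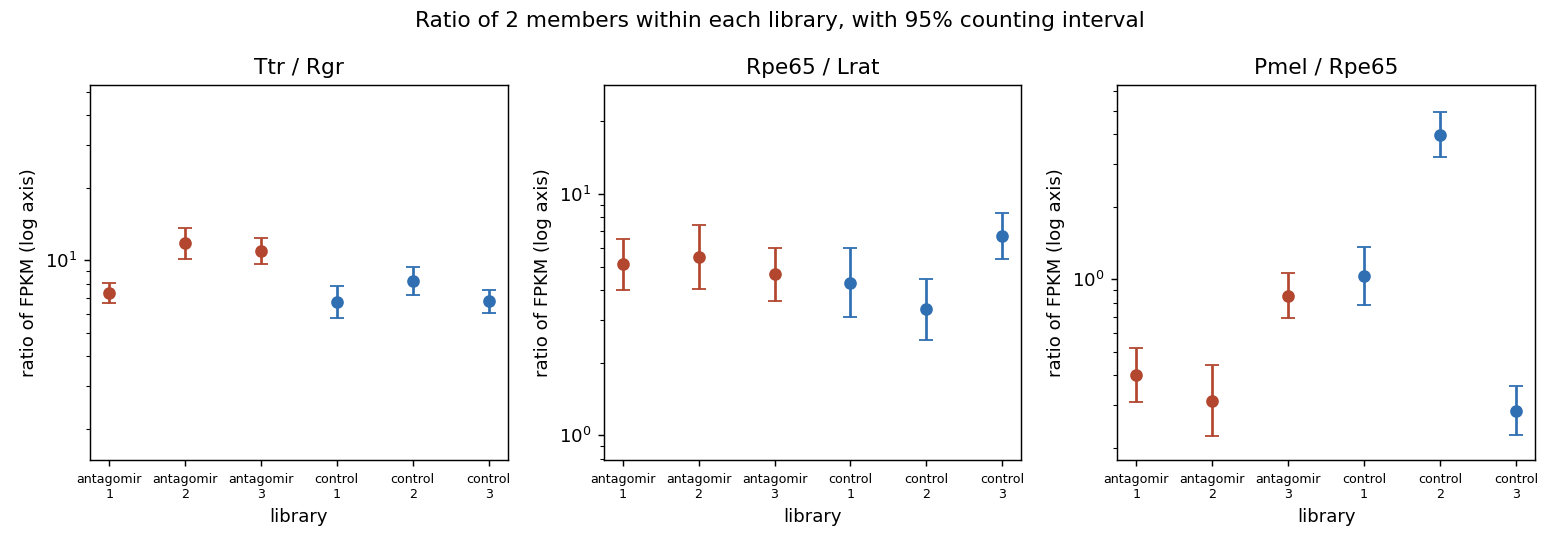
Ratio of FPKM between 2 members in each library on log axes that each span the same range, with 95% counting intervals of the reads, antagomir libraries in red and controls in blue. Ttr over Rgr stays between 6.73 and 11.7, whereas Pmel over Rpe65 runs from 0.285 in control replicate 3 to 3.97 in control replicate 2.

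Because Rpe65, Lrat and Rgr shared their 2 highest libraries and Tyr had another order, their promoters (250 bases before to 50 after the annotated start, RefSeq, GRCm38.p6) are shown, with capitals at CATGTG, an E-box of the kind MITF binds, which reads CACATG on the other strand, and at TAATCC, a core bound by OTX2 and CRX, which reads GGATTA on the other strand. No site overlapped another.
Rpe65 promoter, chr3:159598931-159599230, plus strand: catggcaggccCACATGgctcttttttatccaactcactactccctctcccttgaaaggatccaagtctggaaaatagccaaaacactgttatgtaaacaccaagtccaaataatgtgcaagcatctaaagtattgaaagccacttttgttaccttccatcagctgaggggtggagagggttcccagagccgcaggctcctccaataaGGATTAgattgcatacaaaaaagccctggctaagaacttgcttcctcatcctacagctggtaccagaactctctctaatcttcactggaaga
Lrat promoter, chr3:82903925-82904224, minus strand: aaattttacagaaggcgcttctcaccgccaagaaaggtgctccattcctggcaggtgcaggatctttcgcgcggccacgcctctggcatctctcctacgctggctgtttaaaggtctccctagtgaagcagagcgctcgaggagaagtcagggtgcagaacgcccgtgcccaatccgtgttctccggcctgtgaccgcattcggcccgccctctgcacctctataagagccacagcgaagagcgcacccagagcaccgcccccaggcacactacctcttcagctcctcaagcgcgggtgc
Rgr promoter, chr14:37048965-37049264, minus strand: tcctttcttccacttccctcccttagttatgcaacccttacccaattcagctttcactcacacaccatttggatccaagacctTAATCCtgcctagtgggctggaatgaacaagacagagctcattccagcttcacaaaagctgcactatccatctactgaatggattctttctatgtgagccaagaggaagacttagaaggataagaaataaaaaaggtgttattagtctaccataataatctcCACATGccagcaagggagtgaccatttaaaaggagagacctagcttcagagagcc
Tyr promoter, chr7:87493463-87493762, minus strand: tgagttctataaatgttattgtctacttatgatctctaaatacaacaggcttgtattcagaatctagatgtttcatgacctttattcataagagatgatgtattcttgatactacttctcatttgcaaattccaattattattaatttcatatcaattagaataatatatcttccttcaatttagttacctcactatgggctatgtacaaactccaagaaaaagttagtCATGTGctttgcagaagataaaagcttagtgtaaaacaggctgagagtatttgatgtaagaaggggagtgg
CATGTG was found in the Tyr promoter starting 21 bases before the start, in Rpe65 at 239 bases and in Rgr at 5 bases before it, and in 14.2% of all 32851 promoters in the table. TAATCC was found in Rpe65, Rgr and Best1, starting 42, 167 and 227 bases before the start, and in 7.06% of all promoters. Of the 10 members, 8 were matched to the table. The windows of Lrat, Rdh5 and Krt18 held neither, and of 3 Mitf promoters 1 held TAATCC. A match of letters here is a description, not a binding site.

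The pigment genes did not share the 2 highest libraries of Rpe65. Pmel (ENSMUSG00000025359, chromosome 10, 128704195 to 128720238, plus strand) was at 2.58, 1.21 and 4.31 FPKM in the antagomir libraries and at 3.23, 13.6 and 2.87 in the controls. Control replicate 2 held 475 reads, against 45 to 163 in the others, and was 3.16 times as high as the next library. The group levels were 2.70 ± 1.56 against 6.58 ± 6.12 FPKM, with a log2 fold change of -0.84 (SE 0.56, 95% interval -2.16 to 0.49, adjusted p = 0.849 by limma). Without control replicate 2 it was -0.22, so that library set most of the difference between the means. Pmel overlaps Dgka (mean 1.99 FPKM) and Cdk2 (mean 0.717 FPKM), which lie on the opposite strand, and without a stated strand setting reads from shared sequence cannot be told apart.

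Tyr (ENSMUSG00000004651, chromosome 7, 87424771 to 87493512, minus strand) was at 0.445, 0.173 and 0.469 FPKM in the antagomir libraries and at 0.397, 0.731 and 0.559 in the controls, from 20 to 79 reads. Control replicate 2 was the highest here too, and antagomir replicate 2 the lowest, as for Pmel. The group levels were 0.362 ± 0.165 against 0.563 ± 0.167. In the fit without a filter on low values the log2 fold change was -0.20 (SE 0.13, 95% interval -0.52 to 0.12, adjusted p = 0.874 by limma).

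Mitf (ENSMUSG00000035158, chromosome 6, 97807052 to 98021349, plus strand) had the smallest SD within groups of log2(FPKM + 1) among the tested members, 0.13 beside 0.20 for Krt18. With a pseudocount of 0.1 the order was the reverse, at 0.28 for Mitf and 0.20 for Krt18. Mitf was at 0.843, 0.545 and 0.959 FPKM in the antagomir libraries and at 0.640, 0.722 and 0.572 in the controls, from 49 to 98 reads. Antagomir replicate 2 was the lowest and antagomir replicates 1 and 3 the highest. The log2 fold change was 0.11 (SE 0.14, 95% interval -0.21 to 0.43, adjusted p = 0.921 by limma). Mitf and Tyr hold the 8-base seed match of miR-381-3p. Their log2 fold changes, 0.11 and -0.20, came from fits with and without the filter, and neither passed. Both 95% intervals included 0, and an effect of the microRNA on either gene was not tested. All promoters of Mitf count into 1 value in this table, so its pigment epithelial and melanocyte isoforms were not separated.

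Most other melanosome genes were highest in control replicate 2, as Pmel was. Of 9 tested genes of melanin synthesis and the melanosome other than members, 7 were highest in control replicate 2, where 17.9% of all tested genes were. Tyrp1, an enzyme of melanin synthesis, was at 6.21 FPKM there and between 0.478 and 2.10 elsewhere. Dct, the dopachrome tautomerase, was at 9.31 there and between 2.05 and 4.14 elsewhere. Mlana, a melanosome protein, was at 5.39 there and between 0.216 and 0.993 elsewhere. Of the 9, 3 stood higher and 6 lower in the antagomir group (median -0.27 in log2 fold change), with 0 past the adjusted p and Myo5a, the melanosome motor, lower at an unadjusted p of 0.0087 (10.2, 10.1 and 10.9 against 11.7, 14.2 and 12.9 FPKM, adjusted p = 0.801 by limma). Myo5a is also used by neurons.

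Control replicate 2 was also highest for 6 of 8 tested genes listed for ciliary body and iris, a list that shares Tyrp1 with the melanosome genes above. Best2, a bestrophin of the non-pigmented ciliary epithelium, was at 3.38 FPKM there and between 0.0277 and 0.930 in the other libraries. Mfrp, a frizzled-related membrane protein of pigment and ciliary epithelium, was at 2.96 there and between 0.737 and 1.55 elsewhere. The summed level of the 9 listed genes was at most 55.9 FPKM in the antagomir and 59.5 to 68.2 in the control libraries, most of it Aqp1, which retina also expresses. All 8 tested genes of this list stood lower in the antagomir group (median -0.23 in log2 fold change), with 0 past the adjusted or the unadjusted p. Of 5 genes listed for melanocytes, Sox10 and Ednrb were highest in control replicate 2. Sox10, a factor of neural crest cells and glia, was at 0.302 FPKM there and between 0.0201 and 0.199 elsewhere, and Ednrb, an endothelin receptor, was at 2.14 there and between 1.15 and 1.95 elsewhere. Kit was highest in control replicate 1 and Mc1r in antagomir replicate 3, and Pax3 was listed at 0 in all 6 libraries. Between the groups, Ednrb was lower and Mc1r higher in antagomir, with log2 fold changes of -0.33 and 0.23. Their unadjusted p was 0.0269 and 0.0428, and their adjusted p 0.801, by limma. Among the 3 tested melanocyte genes, 1 was higher and 1 lower without overlap of groups, where 6.16% and 5.87% of all tested genes were. The summed level of the 5, most of it Mc1r and Ednrb, was 4.84 to 6.10 in antagomir and 5.28 to 6.07 in control libraries. All 3 tested genes of scleral and choroidal stroma were highest in control replicate 2 as well. Fmod, a collagen-binding proteoglycan, was at 4.0 FPKM there and between 0.955 and 1.66 elsewhere. The part of ciliary, iris, melanocyte or stromal tissue in the Pmel level was not tested.

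Krt18 did not vary with the other members. It lies on chromosome 15 (ENSMUSG00000023043, 102028180 to 102032027, plus strand), encodes keratin 18, and was at 79.1, 88.5 and 61.5 FPKM in the antagomir libraries and at 68.4, 61.8 and 60.8 in the controls. Antagomir replicates 2 and 1 were the highest, and antagomir replicate 3 lay among the controls. The group levels were 76.4 ± 13.7 against 63.6 ± 4.13 FPKM, with a log2 fold change of 0.25 (SE 0.13, 95% interval -0.07 to 0.56, adjusted p = 0.815 by limma). It was 0.39 without antagomir replicate 3 (adjusted p = 0.700) and 0.13 without antagomir replicate 2. Keratin 18 pairs with keratin 8 in filaments, yet Krt8 was at 0.667, 0.628 and 1.21 FPKM in the antagomir libraries and at 0.652, 1.11 and 1.33 in the controls. The ratio of Krt18 to Krt8 FPKM was between 45.7 and 141. Of the other simple epithelium keratins, Krt7, Krt19 and Krt20 stayed below the filter. Krt18 stood at 6.04 to 23.0 times the FPKM of Rpe65, with the lowest ratio in control replicate 3 and the highest in antagomir replicate 2. The library with the highest Krt18 was also the one with the highest levels of 7 of 8 genes listed for reactive glia and acute phase. Of all tested genes, 17.7% were highest in it. Among these Edn2, an endothelin of stressed photoreceptors, was at 83.1 FPKM there and between 4.89 and 20.7 in the others. Gfap, the glial filament gene, was at 38.3 FPKM there and between 12.4 and 35.1 in the others. The other libraries did not keep this order. The summed level of the 8 genes was 56.8 FPKM in antagomir replicate 1, which was second in Krt18. It was 53.4 in antagomir replicate 3, and 118, 46.4 and 73.0 in control replicates 1, 2 and 3. The part of reactive glia or of an acute phase response in the Krt18 level was not tested.

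The rest of the visual cycle showed no call in either direction. Of 11 tested genes of its pigment epithelium and Müller glia side other than members, 8 had a positive and 3 a negative log2 fold change (median 0.02), and 0 passed the adjusted p. Rlbp1, the 11-cis-retinoid carrier of both cell types, was at 94.6 ± 18.2 against 113 ± 13.2 FPKM. Rdh10, a retinol dehydrogenase of the same cells, was at 24.2, 16.0 and 22.8 against 15.4, 15.2 and 18.6 FPKM, with a log2 fold change of 0.32 (SE 0.16, adjusted p = 0.805 by limma). Dgat1, which can esterify retinol, was the 1 gene of the list at an unadjusted p under 0.05 (16.2 ± 0.378 against 14.6 ± 0.602 FPKM, unadjusted p = 0.0343, adjusted p = 0.801 by limma). Of all tested genes, 3.22% were higher at that level.

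On the photoreceptor side, 2 of 8 tested genes were higher and 6 lower (median -0.09), with 0 past the adjusted p. Abca4, the transporter that clears retinal from disc membranes, was at 115 ± 10.8 against 119 ± 6.26 FPKM. Rdh8 and Rdh12, the photoreceptor retinol dehydrogenases, were at 106 ± 7.48 against 100.4 ± 2.04 and at 207 ± 10.4 against 218 ± 17.7. Rbp3, the retinoid carrier between photoreceptors and pigment epithelium, was at 805 ± 85.5 against 868 ± 51.7 FPKM. Dhrs3, a retinal reductase, was higher at an unadjusted p of 0.0385 by limma (36.3 ± 2.60 against 32.1 ± 1.38). The spread of these genes was small beside that of the members, with a median SD within groups of 0.109 against 0.408 on the log2(FPKM + 1) scale.

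Genes of retinoic acid signalling stood mostly higher in antagomir libraries without passing. Of 11 tested, 9 stood higher and 2 lower (median 0.10 in log2 fold change), and the groups did not overlap for 4, all higher, where 6.16% of all tested genes were higher without overlap. Crabp1, a cytoplasmic retinoic acid carrier that amacrine cells also express, was at 19.4, 18.3 and 26.8 FPKM in the antagomir libraries and at 16.3, 14.2 and 12.8 in the controls. Its log2 fold change was 0.53 (SE 0.15, unadjusted p = 0.0102, adjusted p = 0.801 by limma). The receptor genes Rxra (14.2 ± 0.435 against 12.5 ± 0.456 FPKM), Rara (11.6 ± 1.44 against 9.86 ± 0.534) and Rarg (2.02 ± 0.268 against 1.52 ± 0.199) were also apart. The synthesizing enzyme gene Aldh1a1 was at 9.90 ± 1.35 against 9.89 ± 1.59.

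Factors that act with MITF in pigment epithelium were mostly those that retinal neurons and glia express as well. Of 9 tested, 6 were higher and 3 lower, with 0 past the adjusted p. Otx2, needed for photoreceptors and pigment epithelium, was at 59.2, 67.4 and 65.1 FPKM in the antagomir libraries and at 57.0, 55.6 and 59.1 in the controls. The groups did not overlap, where 6.16% of all tested genes were higher without overlap. The log2 fold change of Otx2 was 0.16 (SE 0.06, unadjusted p = 0.0439, adjusted p = 0.801 by limma). Tfec, a relative of Mitf, was listed at 0 in 5 libraries. Of 20 other pigment epithelium genes, 9 were higher and 11 lower (median -0.05). Enpp2, a lysophospholipase, was the 1 at an unadjusted p under 0.05 by limma (8.13 ± 0.865 against 10.1 ± 1.31 FPKM). Of all tested genes, 2.98% were lower at that level. Of 8 tested bestrophins and other chloride channels, 5 were higher and 3 lower. Ano2, a calcium-activated channel of photoreceptor terminals, was at 26.6 ± 1.17 against 23.8 ± 1.08 FPKM (unadjusted p = 0.0315, adjusted p = 0.801 by limma).

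The spread between libraries of the same group set the width of the intervals above. The SD within groups of log2(FPKM + 1) was 0.88 for Pmel, 0.60 for Rpe65, 0.58 for Rgr, 0.48 for Ttr, 0.34 for Rdh5, 0.24 for Lrat, 0.20 for Krt18 and 0.13 for Mitf, beside a median of 0.12 over all tested genes. Genes within 2-fold of the level of Rpe65 had a median of 0.12, those near Lrat 0.19 and those near Mitf 0.19, so that Mitf lay below the median at its level. Pmel, Rpe65 and Rgr stood at the 99.0, 96.3 and 96.1 percentiles of the tested genes.

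**Figure D5:**
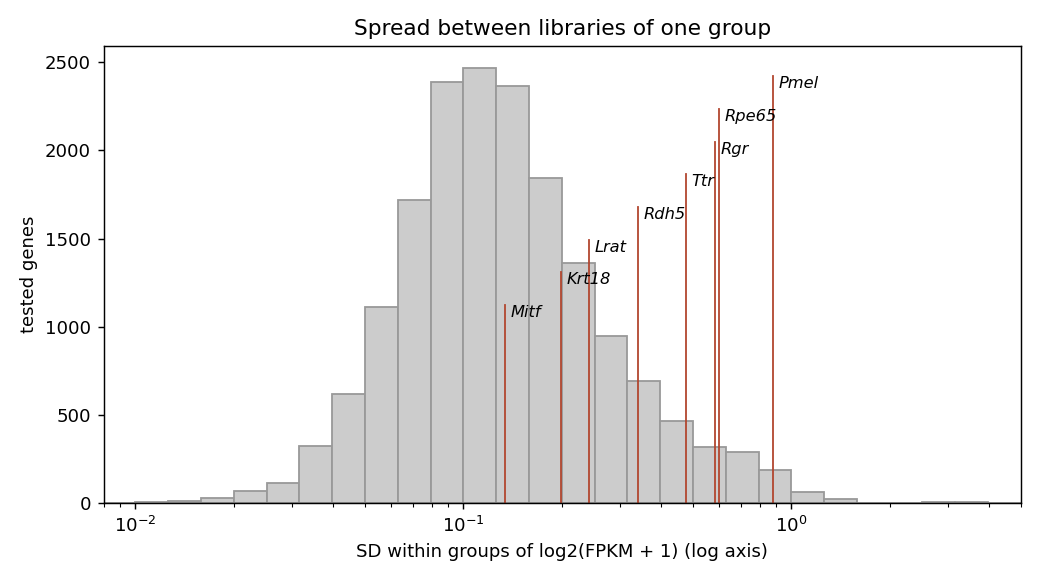
SD within groups of log2(FPKM + 1) over all 17453 tested genes (grey bars, log horizontal axis, number of genes on the vertical axis), with each tested member as a red line. All 8 members lie above the median of 0.12, Mitf closest to it at 0.13 and Pmel farthest at 0.88.

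Among 14952 tested genes with a mean of at least 1 FPKM, those whose pattern over the 6 libraries was nearest to that of Rpe65 were mostly non-coding genes or predicted genes at low levels. They were Gm24689, Gm8186, Gm24939, Gm47446 and Gm12259, with root mean square differences of 0.147 to 0.226 on the centred log2(FPKM + 1) scale, where Rpe65 itself varied by 0.491. Nearest to Ttr were Gm14344, Gm49025, Gm38317, Gm23268 and Gm45570, at 0.169 to 0.197, where Ttr varied by 0.446. No member was among the 5 nearest to either.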

How the data were processed

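RNA was sequenced from 3 antagomir and 3 control retinal samples. TRNzol was used for extraction and a SMARTER mRNA-Seq kit for the libraries, per the labels. The authors deposited FPKM values for 54532 genes with gene length and position, per the file headers, and the submitters' processing notes name the builds GRCm38 and mm10. Which aligner, counting tool and strand setting were used is not given in the sources used here. Multiplied by gene length and divided by the smallest step, 100% of values above 0 came out whole (tolerance 0.01 reads), so reads were rebuilt for counting intervals and voom.

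Genes averaging 0.5 FPKM or more were fitted with limma 3.58.1 in R 4.3.3 (eBayes, trend on) on log2(FPKM + 1), two-sided, with Benjamini-Hochberg adjustment over all 17453 genes. Fold changes on this scale understate those of low genes. Every pair of libraries differed beyond sampling error (chi-square over its degrees of freedom 4.75 to 15.0), so none was counted as a repeat. Members and lists were chosen with earlier results of these data known. Named genes were all members, up to 4 most abundant tested genes of each list, list genes with an unadjusted p under 0.05 and no overlap of groups, and the 5 genes nearest in pattern to Rpe65 and to Ttr. Not all that qualified are named, and Stra6, Slc16a8, Rrh, Mlana, Best2, Mfrp, Sox10, Pax3, Tfec, Rarg, Enpp2, Abca4, Rdh8, Aldh1a1, Krt7, Krt19 and Krt20 were named outside it, after their values were seen. Alternatives were other pseudocounts, filters, scalings, voom, a replicate block, a lens term and leaving out libraries.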

Additional observations from a re-analysis of the deposited data

How the results depend on the processing

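No tested member was called under any of 17 alternatives (134 values, smallest adjusted p 0.700 by limma), and 12 of those values changed sign, all in Rpe65, Lrat or Rgr, whose changes were near 0. Leaving out 1 library gave -0.22 to 0.49 for Rpe65, -0.17 to 0.0948 for Lrat and -0.38 to 0.29 for Rgr. Lrat was 0.0535 with the lens level as a term and 0.12 without the 3 libraries with lens transcripts, and Rgr was -0.0082 by voom and -0.0147 without those libraries. The median of the tested members, 0.07, ran from -0.08 to 0.24 with 1 library left out, and the count of members called was 0 in each. Over all genes, limma called 0, with 1082 at an unadjusted p under 0.05, voom called 1, eBayes without a trend called 5, and leaving out 1 library gave 0 to 2 calls and 740 to 1183 genes at an unadjusted p under 0.05. Leaving out the 3 libraries with lens transcripts, chosen after seeing the data, gave 714. The cause of these differences was not tested. The replicate numbers did not pair the samples, since deviations of same-numbered libraries correlated at -0.19 to -0.10. A fit with the replicate number as a block called 0 genes, with 856 at an unadjusted p under 0.05 and a median of 0.07 for the members, and changed no call. Few reads limit Best1, Tyr, Mitf and Lrat, and 3 libraries per group limit all members.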
